A study of Mus musculus with 10 samples.

Results

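Mouse embryonic fibroblasts that had already been exposed to interferon-β were compared, 1 h into a new exposure, with fibroblasts that had never met it, 2 h into their first. Each side was 1 RNA-seq library of the 10 in the series, 5 of them from pretreated and 5 from naive cells at 0, 1, 2, 4 and 6 h. All libraries came from C57BL/6 fibroblasts of an H3.3b-HA knock-in mouse line, in which a tagged H3.3 cDNA takes the place of the H3f3b locus, so every library, both controls included, carries that allele. The dose was 100 U/ml of interferon-β. How long the pretreatment lasted, and how long the cells then waited, is not stated in the labels. The labels do not say whether the libraries came from separate cultures. The comparison asks whether the second response at 1 h resembles the first at 2 h, and which genes do not follow. It rests on 12168 genes of 23370 gene symbols, those with 1 RPKM (reads scaled to transcript length and to library depth) or more in at least 2 of the 10 libraries.

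Interferon-β acts through a receptor whose kinases JAK1 and TYK2 phosphorylate STAT proteins. A complex that includes STAT2 and IRF9 binds the interferon-stimulated response element (ISRE), while STAT dimers such as those of STAT3 bind gamma-activated sites (GAS). The induced genes encode antiviral effectors such as the OAS, IFIT and MX proteins, immunity GTPases of the GBP and IRG families, the MHC class I pathway, and feedback inhibitors such as SOCS1 and USP18. Fibroblasts exposed once can respond differently to a later exposure.

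With 1 library on each side there was no test, and no p-value is given. A gene was called apart at a 2-fold difference or more in RPKM + 1, and near at less than 1.5-fold. The pretreated 1 h library held 146280121 tag counts, summed over 1 transcript per gene, and the naive 2 h library 108730849, within a range of 83907506 to 268463961 over the series, so counting error was small for all but the weakest genes. The 12 fibroblast markers all passed the filter and summed to 10812 RPKM in pretreated 1 h and 10876 RPKM in naive 2 h. Of the 10 macrophage markers 2 passed, with a sum of 8.66 RPKM in pretreated 1 h and 7.48 RPKM in naive 2 h, and Ptprc (CD45) was listed at 0. The ribosomal precursor Rn45s took 2.85% of the counts in pretreated 1 h and 1.12% in naive 2 h; leaving Rn45s out of the totals gave 123 genes higher and 86 lower, against the 115 and 93 given below. The pretreated 1 h library also stood with pretreated 4 h, and away from pretreated 0, 2 and 6 h, in some genes. The imprinted noncoding RNA H19 had 43.7 and 44.4 RPKM in pretreated 1 and 4 h, against 9.39, 9.19 and 9.78 RPKM in pretreated 0, 2 and 6 h. Postn, a matrix protein gene, had 627 and 679 RPKM in pretreated 1 and 4 h, and 285, 303 and 326 RPKM at the other times of that arm. With pretreated 2 h in place of pretreated 1 h, 189 genes were 2-fold or more higher and 116 lower than naive 2 h; values of pretreated 2 h are given below for many of the genes and lists. In bulk RNA, fewer responding cells and less RNA per cell cannot be told apart.

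Promoters of 4 genes are printed here, 1 or 2 for each pattern described below. B2m and Bst2 are examples of genes higher in pretreated 1 h. Gbp2 is an example of genes lower there that were 2-fold or more over their start an hour later. Serpina3g is an example of lower genes that did not reach 2-fold over their start an hour later. Each line gives the 150 bases before the RefSeq start site, on the gene's own strand and in build GRCm38.p6. Capitals mark matches, on either strand, to the ISRE letters (GAAA, any 2 bases, GAAA), the GAS letters (TTC, any 3 bases, GAA) or the NF-kB letters (GGGA, any 2 bases, TTCC).
B2m, chr2:122147537-122147686, plus strand: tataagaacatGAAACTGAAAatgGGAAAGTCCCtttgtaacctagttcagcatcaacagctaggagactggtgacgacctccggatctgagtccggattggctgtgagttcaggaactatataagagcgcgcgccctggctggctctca
Bst2, chr8:71537473-71537622, minus strand: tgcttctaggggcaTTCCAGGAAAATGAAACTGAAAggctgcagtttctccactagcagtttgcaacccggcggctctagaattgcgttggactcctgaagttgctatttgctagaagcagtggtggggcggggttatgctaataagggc
Gbp2, chr3:142620513-142620662, plus strand: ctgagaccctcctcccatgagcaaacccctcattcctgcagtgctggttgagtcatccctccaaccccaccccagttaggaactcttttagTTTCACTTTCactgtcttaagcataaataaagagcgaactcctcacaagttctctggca
Serpina3g, chr12:104235997-104236146, plus strand: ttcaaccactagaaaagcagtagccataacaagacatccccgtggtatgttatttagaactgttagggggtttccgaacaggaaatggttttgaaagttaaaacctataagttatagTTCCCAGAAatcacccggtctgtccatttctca

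In B2m the ISRE letters began 139 bases before the start site and the NF-kB letters 126 bases before it. Bst2 held a pair of overlapping ISRE matches, 130 and 124 bases before the start, and a GAS match at 136 bases that overlapped the first of them. The Gbp2 ISRE match read TTTCACTTTC on the gene's strand and lay 59 bases before the start. Serpina3g held a GAS match 33 bases before the start and no ISRE letters in the printed stretch. The promoter table covered 9525 of the 12168 genes with 12112 promoters of 300 bases, of which 3.13% held the ISRE letters, 6.77% the GAS letters and 1.41% the NF-kB letters. It covered only 68 of the 115 genes called higher and 66 of the 93 called lower, under 80% of each, so motif shares were not compared between the groups. The printed promoters need not be typical of their patterns. H2-K1, H2-D1 and Irf7, also higher in pretreated 1 h, held none of these letters in their promoters, nor did Serpina3n among the lower genes.

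Over all genes the pair was alike: 11081 genes (91.1%) were near, and the median log2 difference, pretreated 1 h minus naive 2 h, was 0.02 with an SD across genes of 0.37. In pretreated 1 h 115 genes (0.945%) were 2-fold or more higher and 93 genes (0.764%) 2-fold or more lower. Interferon genes lay at both ends. H2-K1, which encodes a classical MHC class I heavy chain on chromosome 17, was the highest of all, at 428 RPKM in pretreated 1 h and 37.7 RPKM in naive 2 h. That was a ratio of 11.3, with a 95% interval of 11.1 to 11.6 that covers counting error only. Serpina3n, an acute-phase protease inhibitor on chromosome 12, was the lowest, at 1.32 RPKM in pretreated 1 h and 15.6 RPKM in naive 2 h. Its ratio was 0.0847, with a counting interval of 0.0762 to 0.0939. Just inside the upper threshold lay Inhba and Ropn1l, and just outside it Hist1h2bn and Gm3716. At the lower threshold Il15 and Il33 were just inside, and the antiviral gene Ifit1 was just outside, with 638 RPKM in pretreated 1 h and 1276 RPKM in naive 2 h.

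**Figure D1:**
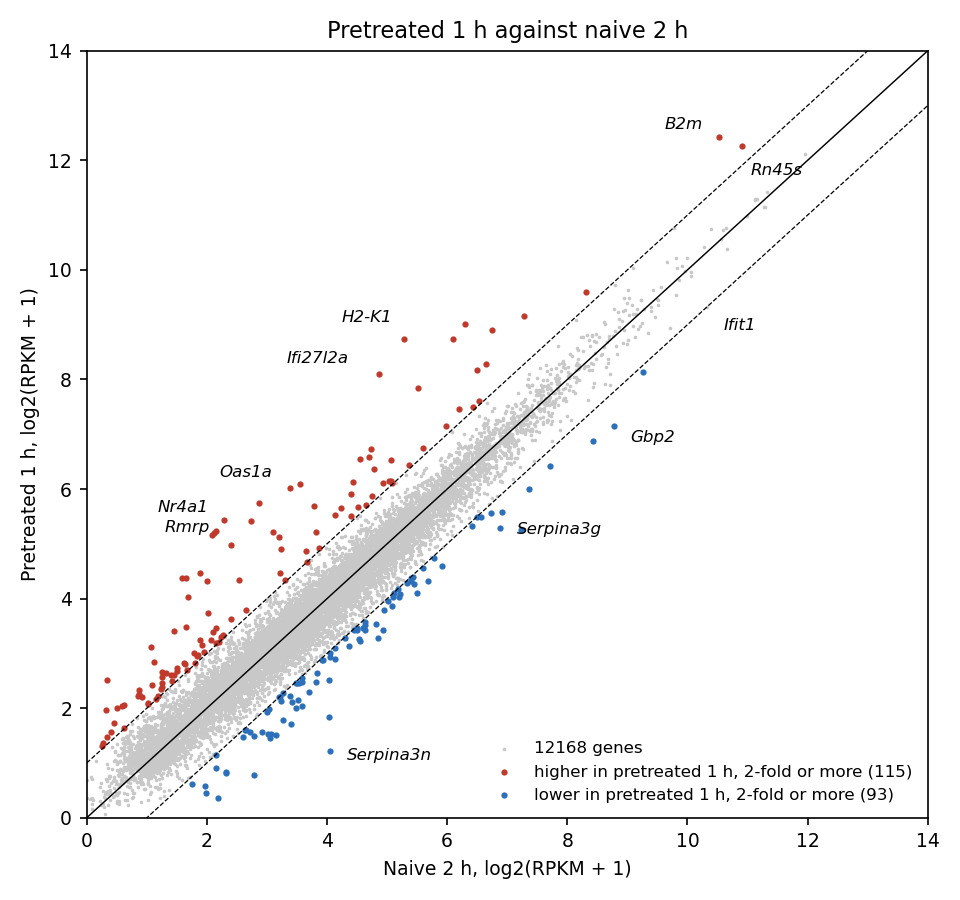
Levels in pretreated 1 h (vertical axis) against naive 2 h (horizontal axis), both as log2(RPKM + 1), 1 point per gene. The 115 genes higher and 93 genes lower by 2-fold or more in pretreated 1 h are coloured, the solid line marks equality and the dashed lines a 2-fold difference; H2-K1 and Serpina3n lie farthest from it.

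Of the naive libraries, the 2 h one lay closest to pretreated 1 h for the first-response genes as a set. The first-response genes, 695 genes (5.71%) at least 2-fold higher in naive 4 h than naive 0 h, had a median log2 difference, pretreated 1 h minus naive, of 1.10, 0.58, -0.16, -0.77 and -0.81 against naive 0, 1, 2, 4 and 6 h. This set was chosen on the naive 0 and 4 h libraries, so its medians against those times are partly fixed by that choice. Near genes among the 695 numbered 161, 336, 428, 246 and 210 against the same 5 times. Against pretreated 0 h, the start of its own arm, 448 of the 695 were near, more than against any naive time. The likeness to naive 2 h is thus one of levels, and does not by itself show a like response. Over all genes pretreated 1 h had 433 genes higher (3.56%) and 143 lower (1.18%) than naive 0 h, and 188 higher (1.55%) and 99 lower (0.814%) than naive 1 h. Against later times the balance was turned round, with 28 genes higher (0.23%) and 247 lower (2.03%) than naive 4 h, and 65 higher (0.534%) and 282 lower (2.32%) than naive 6 h. The crossing point differed between gene groups. For 22 interferon-inducible GTPases the median log2 difference was 1.45 against naive 1 h and -0.38 against naive 2 h. For 26 genes of the MHC class I pathway it was 1.78 against naive 1 h and 0.66 against naive 2 h. Against naive 4 h it was -0.53, so this median changed sign between naive 2 h and naive 4 h. Single genes differed: H2-K1 had 428 RPKM in pretreated 1 h and 379 RPKM in naive 4 h, and H2-Q4 had 93.0 and 99.4 RPKM. Not every list was closest to naive 2 h. Median sizes of difference were 0.66 there and 0.64 against naive 4 h for the MHC class I list. For 16 signalling genes they were 0.25 against naive 1 h and 0.28 against naive 2 h. For 20 genes of cell death and PML bodies they were 0.60 and 0.68.

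**Figure D2:**
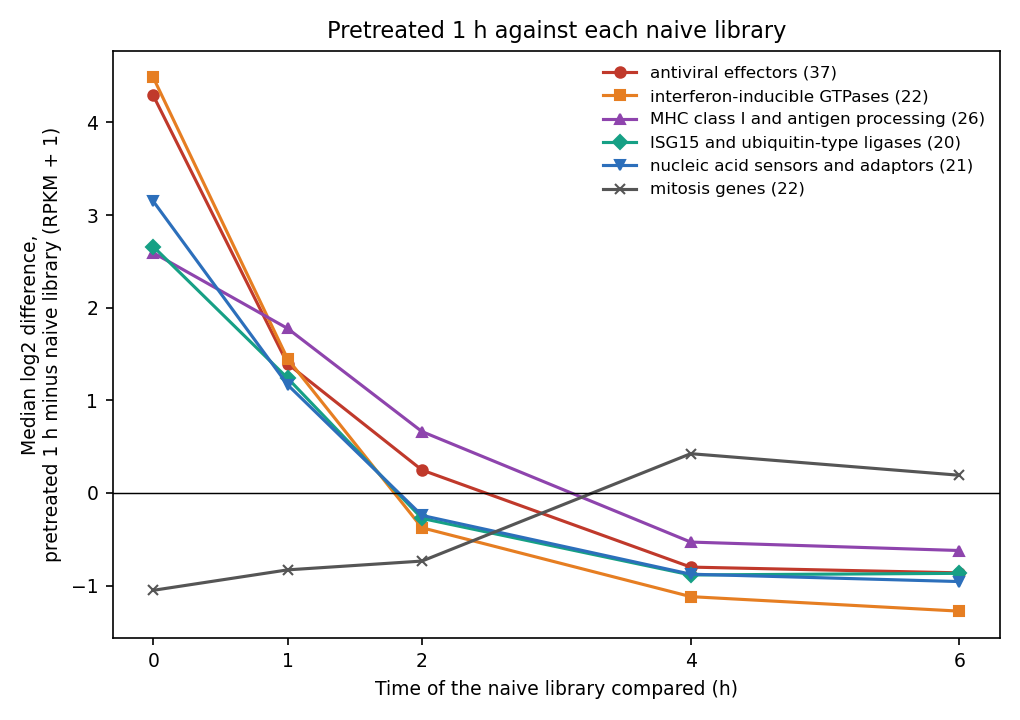
Median log2 difference of RPKM + 1, pretreated 1 h minus each naive library, by the time of the naive library in h, for 6 gene lists with the number of genes in brackets. The 5 interferon lists are above 0 against naive 1 h; against naive 2 h the MHC class I genes and antiviral effectors are at 0.66 and 0.25, and the GTPases at -0.38.

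A panel of 29 interferon genes lay on both sides of equality, between log2 differences of -1.62 and 2.64, pretreated 1 h minus naive 2 h, with a median of 0.15 and a median size of 0.61. Of these 9 genes were higher, 1 was lower and 13 (44.8%) were near, against 91.1% near among all genes. The starting levels differed more. Over their own 0 h libraries the same genes had a median log2 gain of 0.77 in pretreated 1 h and 4.64 in naive 2 h. The gain was 2-fold or more for 12 of the 29 in pretreated 1 h and for 28 in naive 2 h. Across all genes such gains numbered 159 (1.31%) in pretreated 1 h over pretreated 0 h and 481 (3.95%) in naive 2 h over naive 0 h. Irf9, a subunit of the ISRE-binding complex, shows the pattern: Irf9 stood at 69.5 RPKM in pretreated 0 h and 87.2 RPKM in pretreated 1 h, and at 11.6 RPKM in naive 0 h and 78.3 RPKM in naive 2 h. Rsad2 (viperin) and Cxcl10, a chemokine that draws T cells, had large gains in both arms, from starts that were above naive in pretreated cells. Rsad2 had 13.3 RPKM in pretreated 0 h and 305 RPKM in pretreated 1 h, against 0.302 RPKM in naive 0 h and 199 RPKM in naive 2 h. Cxcl10 had 11.7 RPKM in pretreated 0 h and 490 RPKM in pretreated 1 h, against 0.631 RPKM in naive 0 h and 840 RPKM in naive 2 h. In pretreated 1 h both were well above their naive 1 h values of 21.4 RPKM for Rsad2 and 126 RPKM for Cxcl10.

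**Figure D3:**
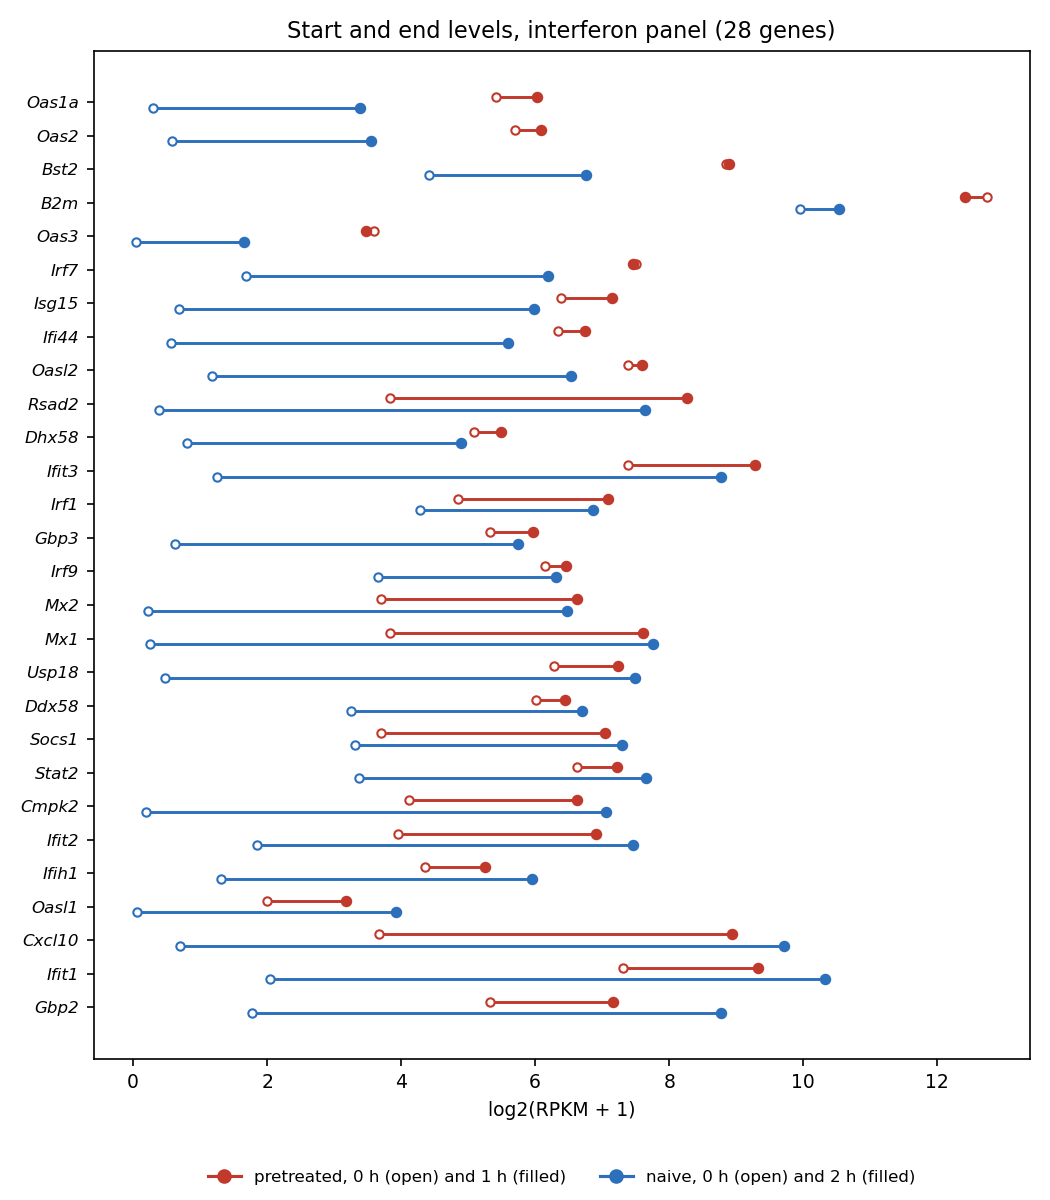
Levels of 28 panel genes as log2(RPKM + 1): pretreated cells at 0 h (open red) and 1 h (filled red), above naive cells at 0 h (open blue) and 2 h (filled blue), 1 library per point. The open blue points lie to the left of the open red ones; genes are ordered by the difference between the filled points, from Oas1a at the top to Gbp2 at the bottom.

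Genes already raised before the new exposure made up most of those higher in pretreated 1 h. In pretreated 0 h 311 genes (2.56%) were at least 2-fold above naive 0 h, a comparison that uses neither of the 2 libraries compared here. Of the 115 higher genes 66 (57.4%) were among them, and of the 93 lower genes 7 were. These carried-over genes differed by the timing of the first response. Among 73 that were late in naive cells, under 1.5-fold at 1 h and 2-fold or more at 4 h, 29 were higher in pretreated 1 h, none was lower and the median log2 difference was 0.78. That lean is partly fixed by the choice of genes. Late genes were picked as little changed in naive 1 h, and carried-over genes as raised in pretreated 0 h. In naive cells 246 genes (2.02%) were early, 2-fold or more above 0 h at 1 h. Among the 141 of these that were carried over, 20 were higher, 7 were lower and the median was -0.17. Of 342 late genes that were not carried over, 4 were higher and 18 lower, with a median of -0.21.

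The MHC class I pathway, which displays peptides from the cell interior to T cells, held 10 higher genes and no lower one among 26. Of all genes 0.945% were higher and 0.764% lower. All 10 were heavy chains or their partner B2m. H2-K1 had 325, 428, 425, 665 and 560 RPKM in pretreated 0, 1, 2, 4 and 6 h, against 9.94, 13.3, 37.7, 379 and 288 RPKM in naive 0, 1, 2, 4 and 6 h. B2m, the light chain, had 6861, 5479, 5821, 7781 and 8368 RPKM in the pretreated course, against 990, 1352, 1474, 5250 and 6179 RPKM in the naive course. In both genes every pretreated library was above the naive library of the same time, and naive 2 h was far below naive 4 h. H2-D1 had 517 RPKM in pretreated 1 h and 77.2 RPKM in naive 2 h, and H2-Q4 had 93.0 RPKM in pretreated 1 h and 22.5 RPKM in naive 2 h. H2-D1 and H2-L, and the H2-Q genes among themselves, are near-identical copies whose reads may be split or shared by the counting, so their single values are uncertain. The peptide transporter genes behaved otherwise: Tap1 had 89.1 RPKM in pretreated 1 h and 94.3 RPKM in naive 2 h. The immunoproteasome subunit gene Psmb8 had 68.0 RPKM in pretreated 1 h and 34.3 RPKM in naive 2 h, just under 2-fold. Nlrc5, the transactivator of class I genes, had 10.1 RPKM in pretreated 1 h and 16.3 RPKM in naive 2 h, and reached 29.0 RPKM in pretreated 2 h. None of the 26 genes had a 2-fold gain over pretreated 0 h by 1 h, while 19 had one in naive 2 h over naive 0 h.

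Among 37 antiviral effector genes 9 were higher in pretreated 1 h, 2 lower and 17 near, with a median log2 difference of 0.25. The shares over all genes were 0.945% higher, 0.764% lower and 91.1% near. The OAS genes, whose enzymes make the 2-5A that activates RNase L, were the clearest subset. Oas1a had 41.8, 64.0, 79.7, 114 and 121 RPKM in the pretreated course, against 0.226, 2.14, 9.45, 67.4 and 87.0 RPKM in the naive course; it shares reads with its near-identical copy Oas1g. Oas2 had 67.0 RPKM in pretreated 1 h and 10.7 RPKM in naive 2 h, and 93.2 RPKM in pretreated 2 h. Oas3 had 10.2 RPKM in pretreated 1 h and 2.14 RPKM in naive 2 h. Bst2 (tetherin), which holds budding virions on the cell surface, had 458, 476, 425, 718 and 742 RPKM in the pretreated course, against 20.4, 59.2, 107, 591 and 605 RPKM in the naive course. Its pretreated level barely moved over the first 2 h, and its promoter is the one printed above with overlapping ISRE matches. Isg15, the ubiquitin-like modifier, had 141 RPKM in pretreated 1 h and 62.0 RPKM in naive 2 h. Irf7, the factor that amplifies interferon production, had 180 RPKM in pretreated 0 h and 174 RPKM in pretreated 1 h, against 2.22 RPKM in naive 0 h and 72.2 RPKM in naive 2 h. Zbp1, a sensor of Z-form nucleic acid, had 90.9 RPKM in pretreated 1 h and 32.5 RPKM in naive 2 h, and was the 1 higher gene among 21 sensors and adaptors, none of which was lower and 15 of which were near.

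Ifit3, Mx1 and Mx2 were near on the pair, and Ifit1, at 638 RPKM in pretreated 1 h and 1276 RPKM in naive 2 h, was lower by just under 2-fold. Ifit3 had 167, 620, 884, 1118 and 987 RPKM in the pretreated course, against 1.38, 76.0, 437, 1099 and 1262 RPKM in the naive course. Mx1, a GTPase that blocks influenza virus, had 13.3, 195, 400, 252 and 210 RPKM in the pretreated course, against 0.186, 47.0, 215, 287 and 315 RPKM in the naive course. Mx1 in pretreated 1 h thus lay near naive 2 h and well above naive 1 h, from a pretreated start of 13.3 RPKM. Mx2 had 97.4 RPKM in pretreated 1 h and 88.1 RPKM in naive 2 h. In the signalling chain Stat2 had 149 RPKM in pretreated 1 h and 201 RPKM in naive 2 h, and 13 of the 16 signalling genes were near, against 91.1% of all genes. The exceptions were Irf7, above, and 2 lower genes. Jak2, a kinase of other cytokine receptors, had 16.2 RPKM in pretreated 1 h and 33.5 RPKM in naive 2 h, and 35.9 RPKM in pretreated 2 h. Irf2, which competes with IRF1 for its sites, had 25.8 RPKM in pretreated 1 h and 54.0 RPKM in naive 2 h, and 64.0 RPKM in pretreated 2 h, so both had passed naive 2 h an hour later. Among 13 feedback inhibitors 9 were near and 2 lower, against the same 91.1% near. Usp18, which strips ISG15 and blocks the receptor, had 150 RPKM in pretreated 1 h and 179 RPKM in naive 2 h. Socs1, an inhibitor of the receptor kinases, had 131 RPKM in pretreated 1 h and 157 RPKM in naive 2 h. It started from 12.0 RPKM in pretreated 0 h and 8.90 RPKM in naive 0 h, so its gain was large in both arms.

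**Figure D4:**
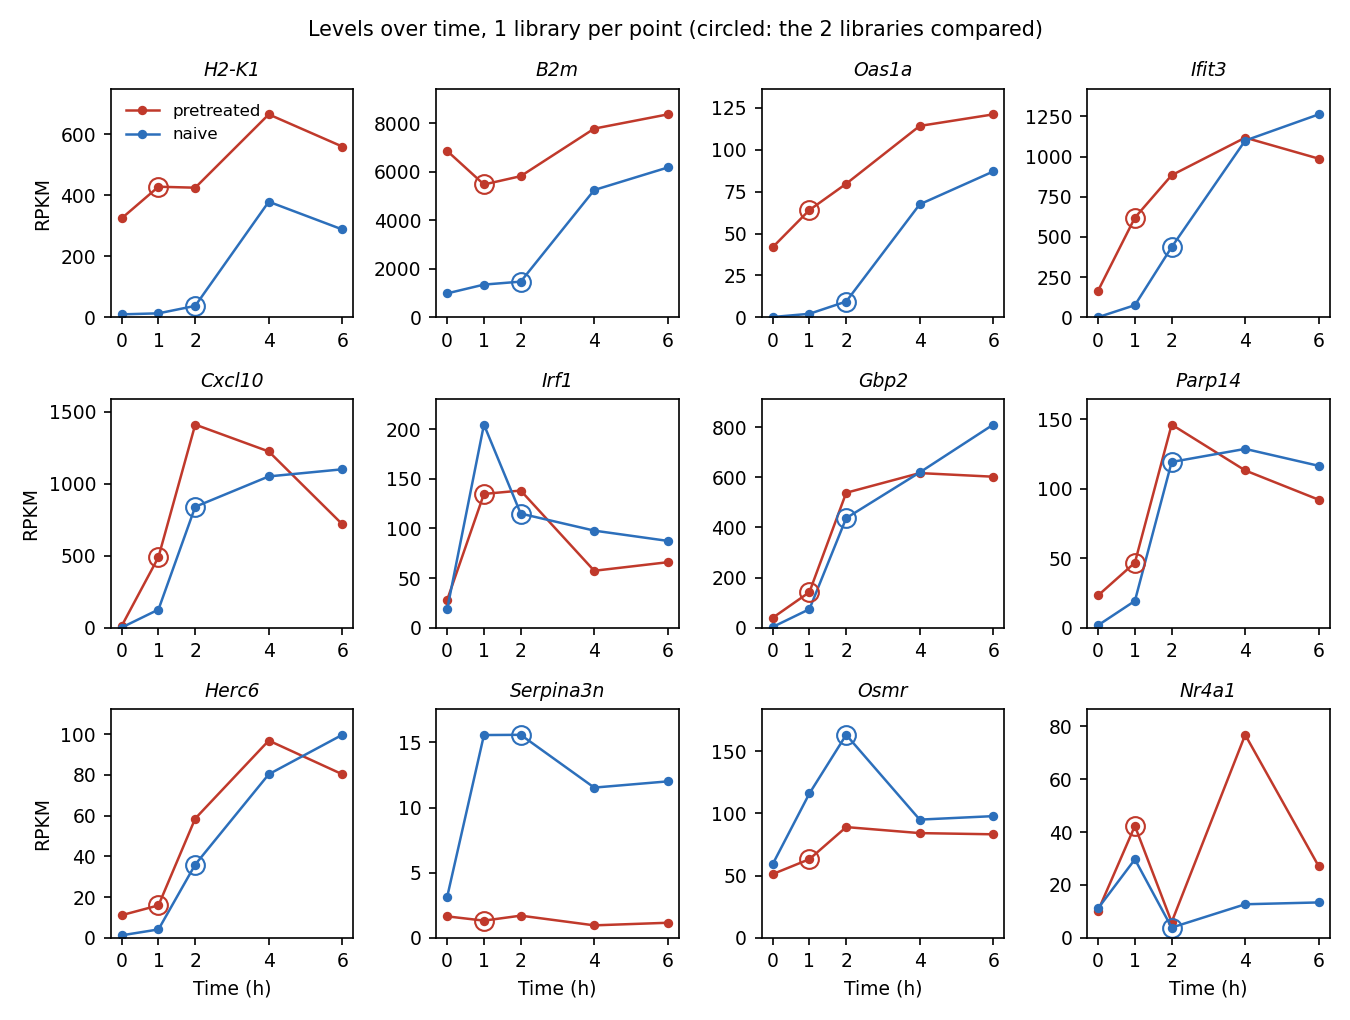
Levels of 12 genes in RPKM (vertical axis, each from 0) by time in h, pretreated cells in red and naive cells in blue, 1 library per point. Circles mark pretreated 1 h and naive 2 h: H2-K1, B2m and Oas1a are higher in pretreated 1 h from a raised start, Ifit3 and Irf1 are alike, Gbp2, Parp14 and Herc6 are lower but high in pretreated 2 h, Serpina3n is low throughout the pretreated course, and Osmr is well below naive at 1 and 2 h.

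One group was lower in pretreated 1 h and had risen over its own start an hour later. Of the 93 lower genes 41 (44.1%) were at least 2-fold higher in pretreated 2 h than in pretreated 0 h, against 438 genes (3.6%) of all, and neither library belongs to the pair compared. Of those 41 genes 38 were first-response genes. The rise did not bring every one of the 41 to the naive 2 h level: Tnfaip6 had 2.94 RPKM in pretreated 2 h and 7.33 RPKM in naive 2 h. Gbp2, a guanylate-binding GTPase that attacks the membranes of intracellular pathogens, had 39.0, 142, 538, 617 and 602 RPKM in the pretreated course, against 2.41, 73.7, 437, 619 and 810 RPKM in the naive course. It was above naive at 1 h and again at 2 h, yet its 1 h level was a ratio of 0.324 to that of naive 2 h. Parp14, an ADP-ribosyltransferase, had 23.2, 46.7, 146, 113 and 92.0 RPKM in the pretreated course, against 1.72, 19.2, 119, 129 and 116 RPKM in the naive course. Samhd1, which depletes nucleotides needed by retroviruses, had 84.7 RPKM in pretreated 1 h and 208 RPKM in naive 2 h, and 230 RPKM in pretreated 2 h. Herc6, the main ISG15 ligase of the mouse, had 15.9 RPKM in pretreated 1 h and 36.0 RPKM in naive 2 h, and 58.5 RPKM in pretreated 2 h. Slfn9, of the schlafen family, had 46.6 RPKM in pretreated 1 h and 106 RPKM in naive 2 h, and 114 RPKM in pretreated 2 h. Gbp2, Parp14, Herc6 and Slfn9 were 4 of the 7 lower genes that were carried over.

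Among the 22 interferon-inducible GTPases Gbp2 and Gbp5 were lower, none was higher and 11 were near. The shares over all genes were 0.764% lower and 91.1% near. For the 22 GTPases the median log2 difference was -0.38. With pretreated 2 h in place of pretreated 1 h the median was 0.83, so its sign turned. Gbp5 had 6.49 RPKM in pretreated 1 h and 16.6 RPKM in naive 2 h, and 28.8 RPKM in pretreated 2 h. The regulators of vacuole attack Irgm1 and Igtp (Irgm3) leaned the same way without reaching 2-fold. Irgm1 had 239 RPKM in pretreated 1 h and 420 RPKM in naive 2 h, and Igtp had 134 RPKM in pretreated 1 h and 233 RPKM in naive 2 h. Members were not uniform, since Gbp4 had 7.71 RPKM in pretreated 1 h and 4.57 RPKM in naive 2 h. The GTPases also responded most often within pretreated cells among the interferon lists described here, with 17 of 22 at 2-fold or more over pretreated 0 h by 1 h, while 21 were so in naive 2 h over naive 0 h. Among the 20 genes for ISG15 and ubiquitin-type ligases 15 were near, Isg15 was higher and Herc6 lower, with a median log2 difference of -0.27, or 0.58 with pretreated 2 h in place of pretreated 1 h. Of these only Trim21, an antibody receptor that is also a ligase, had a 2-fold gain over pretreated 0 h, at 33.8 RPKM in pretreated 1 h from 8.55 RPKM.

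The other 52 lower genes did not reach 2-fold over pretreated 0 h in pretreated 2 h. In the list of 20 acute genes associated with STAT3, 4 were lower, none higher and 10 near, against 0.764% lower and 91.1% near among all genes. Its median log2 difference was -0.41, and -0.45 with pretreated 2 h in place of pretreated 1 h. Of the 4, Osmr, Bcl3 and Has1 belong to these 52, and Fgl2, a fibrinogen-like protein gene, does not. The list had a median log2 gain of 0.01 in pretreated 1 h and 0.56 in naive 2 h over the 0 h libraries. Serpina3n had 1.65, 1.32, 1.70, 0.958 and 1.16 RPKM in the pretreated course, against 3.14, 15.6, 15.6, 11.5 and 12.0 RPKM in the naive course. No pretreated library reached the naive 0 h level. Osmr, a receptor subunit for oncostatin M, had 51.2, 63.2, 89.0, 84.1 and 83.2 RPKM in the pretreated course, against 59.1, 116, 163, 94.9 and 97.8 RPKM in the naive course. The arms were far apart for Osmr at 1 and 2 h and close at 0, 4 and 6 h. Serpina3g, whose promoter with a GAS match is printed above, had 28.5, 38.2, 46.5, 31.0 and 28.0 RPKM in the pretreated course, against 45.7, 90.1, 117, 54.2 and 35.7 RPKM in the naive course. Its neighbour in the same cluster on chromosome 12, Serpina3f, had 2.59 RPKM in pretreated 1 h and 15.3 RPKM in naive 2 h. With 6.54 RPKM in pretreated 2 h and 1.29 RPKM in pretreated 0 h Serpina3f counts among the 41 genes above, though it was still below naive 2 h. Serpina3 genes are close paralogs, so reads may be split among them. Bcl3, a nuclear partner of NF-kB, had 10.6 RPKM in pretreated 1 h and 27.2 RPKM in naive 2 h, after 20.2 RPKM in pretreated 0 h and 21.9 RPKM in naive 0 h, and its naive peak was 94.4 RPKM at 1 h. Has1, a hyaluronan synthase, had 1.96 RPKM in pretreated 1 h and 5.57 RPKM in naive 2 h. Socs3, the inhibitor of STAT3 signalling, had 15.9 RPKM in pretreated 1 h and 27.4 RPKM in naive 2 h, short of 2-fold. Its naive value at 1 h was 213 RPKM. Socs2 and the phosphatase gene Ptpn1 were the lower feedback inhibitors. Socs2 had 15.3 RPKM in pretreated 1 h and 33.4 RPKM in naive 2 h, and Ptpn1 had 19.7 RPKM in pretreated 1 h and 41.3 RPKM in naive 2 h.

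Other low genes differed before the new exposure. Of the 93 lower genes 10 were at least 2-fold lower in pretreated 0 h than naive 0 h, against 102 genes (0.838%) of all. They included H19, Mmp3, Pcolce2 and Peg10. Mmp3, a matrix metalloproteinase, had 3.06 RPKM in pretreated 0 h and 3.14 RPKM in pretreated 1 h, against 7.40 RPKM in naive 0 h and 10.9 RPKM in naive 2 h. H19 had 43.7 RPKM in pretreated 1 h and 89.5 RPKM in naive 2 h, and only 9.19 RPKM in pretreated 2 h, so its difference is wider without the pretreated 1 h library. The metallothionein genes Mt1 and Mt2, which bind zinc, were lower too. Mt2 had 231, 117, 310, 97.7 and 224 RPKM in the pretreated course, against 148, 255, 343, 305 and 235 RPKM in the naive course. It was lowest in the same pretreated 1 and 4 h libraries that stood apart in H19, and in pretreated 2 h it was close to naive 2 h.

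Genes higher in pretreated 1 h without a raised start numbered 49, of which 5 (10.2%) were first-response genes, against 695 genes (5.71%) of all. These 5 included the microRNA entries Mir1966, Mir24-1 and Mir3074-1, with 47, 54 and 75 counts in pretreated 1 h and 5, 16 and 19 in naive 2 h. Further microRNA entries among the 49 also rested on few counts, such as Mir761 with 32 in pretreated 1 h and 2 in naive 2 h. Immediate early genes, which are switched on within minutes by serum, growth factors or handling, were among the 49. Of 29 listed, 5 were higher, 1 lower and 15 near, with a median log2 difference of 0.33. The shares over all genes were 0.945% higher, 0.764% lower and 91.1% near. Nr4a1, an orphan nuclear receptor on chromosome 15, had 10.3, 42.3, 5.93, 76.8 and 27.0 RPKM in the pretreated course, against 11.2, 29.7, 3.88, 12.7 and 13.4 RPKM in the naive course. It was high in both 1 h libraries and low in both 2 h libraries, and highest in pretreated 4 h. Nr4a1, Egr1, Egr2 and Egr3 were all higher in pretreated 1 and 4 h than in pretreated 0, 2 and 6 h, the split seen in H19. Egr1 had 49.8, 106, 57.5, 98.4 and 42.0 RPKM in the pretreated course, and Egr3 had 2.78, 7.93, 0.923, 5.66 and 1.11 RPKM. The part of that split in these differences was not tested. Egr2, a zinc-finger factor, had 4.91 RPKM in pretreated 1 h and 1.39 RPKM in naive 2 h, and 10.9 RPKM in naive 1 h. Srf, the serum response factor, had 29.4 RPKM in pretreated 1 h and 13.5 RPKM in naive 2 h, and 17.7 RPKM in pretreated 2 h. With 30.5 RPKM in pretreated 0 h, Srf did not follow the split seen in H19. Fos was alike, at 1.42 RPKM in pretreated 1 h and 1.23 RPKM in naive 2 h. The 1 lower member was Atf3, a stress-induced factor, with 6.32 RPKM in pretreated 1 h and 14.1 RPKM in naive 2 h, and 21.6 RPKM in pretreated 2 h. In the pretreated arm 8 of the 49 genes were at least 2-fold lower in pretreated 2 h than in pretreated 0 h, against 135 genes (1.11%) of all. Nr4a1 was not among the 8. The genes were chosen for naive 2 h values below pretreated 1 h, so this count says nothing on the naive arm. The ribosomal protein gene Rps28 had 179 RPKM in pretreated 1 h and 85.5 RPKM in naive 2 h, with 79.8 RPKM in pretreated 2 h and 204 RPKM in naive 1 h. Ddit3 (CHOP), a factor of the unfolded protein response, was a different case, with a raised start of 132 RPKM in pretreated 0 h, against 59.9 RPKM in naive 0 h. It had 94.9 RPKM in pretreated 1 h and 25.0 RPKM in naive 2 h, and 108 RPKM in pretreated 2 h. Time after exposure and pretreatment differ together between the 2 libraries, so for genes low at 2 h in both arms they cannot be told apart from this pair alone.

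Chemokine and cytokine genes went both ways, with 2 of the 19 listed higher, 2 lower and 10 near. Of all genes 0.945% were higher, 0.764% lower and 91.1% near. Ccl5, which attracts T cells, had 50.7 RPKM in pretreated 1 h and 12.7 RPKM in naive 2 h, and 34.9 RPKM in pretreated 2 h. Cxcl11 had 3.63 RPKM in pretreated 1 h and 0.891 RPKM in naive 2 h. The lower ones were Il15, a cytokine for natural killer cells, with 3.83 RPKM in pretreated 1 h and 8.69 RPKM in naive 2 h, and the alarmin gene Il33, with 3.58 RPKM in pretreated 1 h and 8.20 RPKM in naive 2 h. Il15 then reached 19.8 RPKM in pretreated 2 h. Outside the list the eotaxin gene Ccl11 was lower, with 1.89 RPKM in pretreated 1 h and 7.12 RPKM in naive 2 h, and 4.42 RPKM in pretreated 2 h. In the list of 20 genes of cell death and PML bodies, 4 were higher, 1 lower and 9 near, against the same shares of all genes. The higher ones were Xaf1 and the nuclear-body genes Sp100, Sp110 and Sp140. Sp100 had 36.3 RPKM in pretreated 1 h and 7.60 RPKM in naive 2 h, and 75.6 RPKM in pretreated 2 h. Fas, the death receptor, was the lower one, with 8.68 RPKM in pretreated 1 h and 18.8 RPKM in naive 2 h, and 7.59 RPKM in pretreated 2 h.

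Cell-cycle genes leaned lower in pretreated 1 h. All 22 mitosis genes had negative log2 differences, between -1.05 and -0.19, with a median of -0.74; 2 passed 2-fold and 7 were near. With pretreated 2 h in place of pretreated 1 h the median was -0.55. Ccnb1 (cyclin B1) had 9.98 RPKM in pretreated 1 h and 21.7 RPKM in naive 2 h, and Top2a had 56.2 RPKM in pretreated 1 h and 106 RPKM in naive 2 h. Ccnb1 was already at 15.0 RPKM in pretreated 0 h, against 24.3 RPKM in naive 0 h. The 24 S phase genes had a median log2 difference of -0.51, with none past 2-fold, and of -0.18 with pretreated 2 h. Replication-dependent histone genes leaned the other way, with 5 of 24 higher, none lower and a median of 0.73, or 0.53 with pretreated 2 h. Of all genes 0.945% were higher. The histone genes were already raised before the new exposure, with a median log2 difference of 0.92 in pretreated 0 h over naive 0 h. From pretreated 0 h to pretreated 1 h their median log2 change was -0.30. Histone paralogs share reads, and their transcripts mostly lack a poly(A) tail. The RNA polymerase III transcripts Rmrp and Rpph1, RNA subunits of processing enzymes, were much higher, with Rmrp at 30.6 RPKM in pretreated 1 h and 4.30 RPKM in naive 2 h. Rmrp was also high in pretreated 0 h, at 76.0 RPKM, and in naive 1 h, at 21.9 RPKM, and it was 4.58 RPKM in pretreated 2 h. Rn45s was raised in the same 2 pretreated libraries, at 6751 and 4916 RPKM in pretreated 0 and 1 h and 1920 RPKM in naive 2 h; the part of library make-up in the histone and small-RNA values was not tested.

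**Figure D5:**
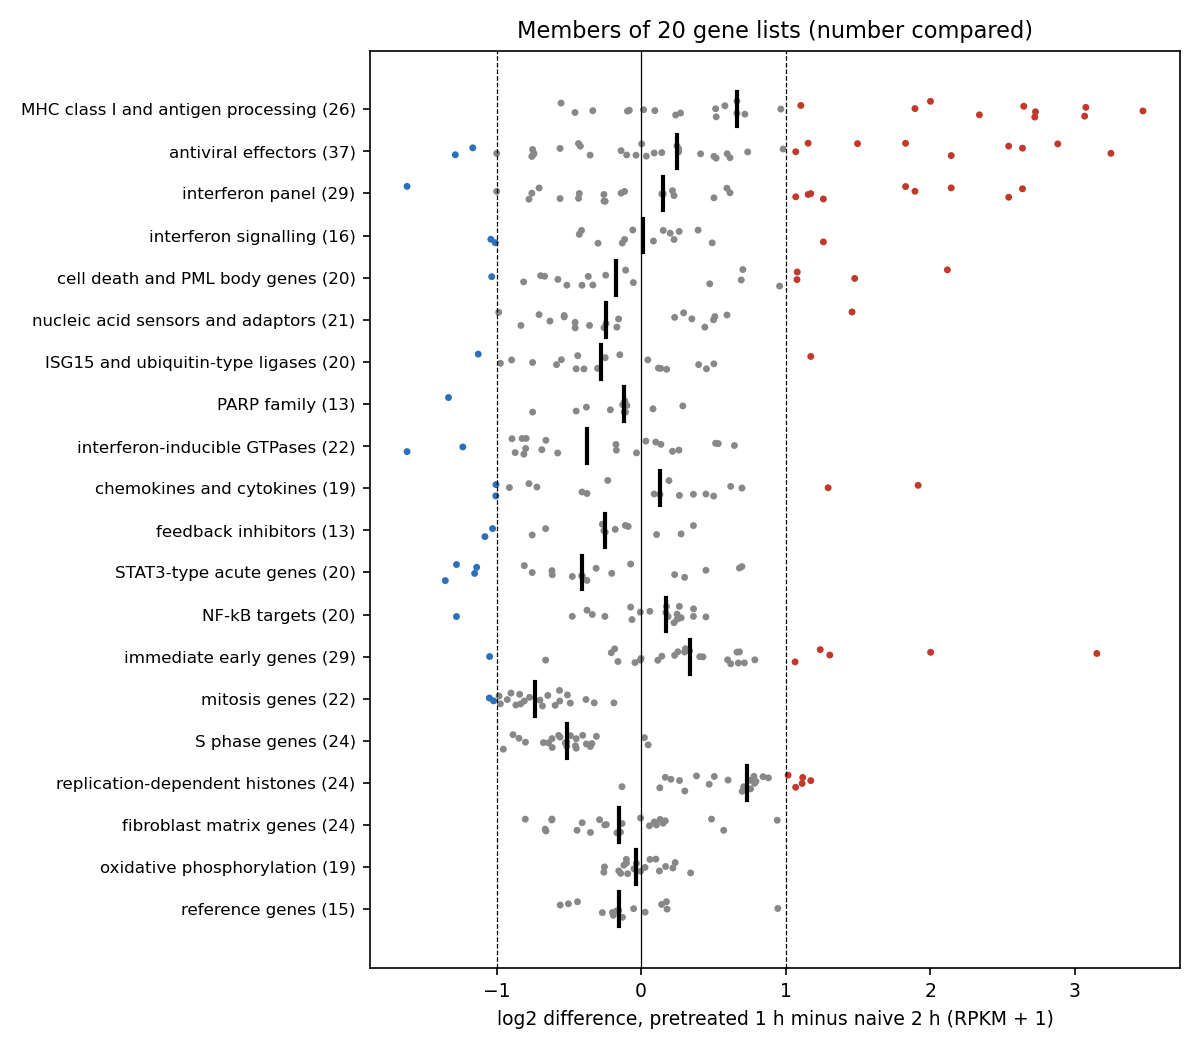
Log2 difference of RPKM + 1, pretreated 1 h minus naive 2 h, for the members of 20 gene lists, 1 point per gene, with the number compared in brackets and a black bar at each median. Red points are 2-fold or more higher and blue points 2-fold or more lower in pretreated 1 h; MHC class I genes reach 3.47, all mitosis genes lie below 0, and oxidative phosphorylation genes stay within 0.34 of 0.

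None of the housekeeping lists held a gene 2-fold apart, though not all were level. Among the ribosomal protein genes 24 of 26 had positive differences, with a median of 0.20, and Rps28, given above, is not in that list. Among the cholesterol synthesis genes 15 of 19 had negative differences, with a median of -0.17. All 19 oxidative phosphorylation genes and all 19 cholesterol synthesis genes were near, as were 25 of 26 ribosomal protein genes and 14 of 15 reference genes, against 91.1% of all genes. Among 20 NF-kB targets 19 were near and Bcl3 was the lower one. Among 24 fibroblast matrix genes 18 were near and none was 2-fold apart; their median log2 difference was -0.16, and -0.57 with pretreated 2 h.

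Some of these genes were also 2-fold apart between the arms at 4 and 6 h, in libraries that are not part of the pair. The genes were chosen as 2-fold apart in the pair, so smaller counts elsewhere were bound to follow and cannot show that the arms drew together. Those comparisons also set equal times against each other, unlike the pair. Of the 115 higher genes 13 were also at least 2-fold higher in pretreated 4 h than naive 4 h, against 29 genes (0.238%) of all, and of the 93 lower genes 7 were also lower there, against 16 genes (0.131%) of all. Of the 115 higher genes 9 were also at least 2-fold higher in pretreated 6 h than naive 6 h, against 19 genes (0.156%) of all. Of the 93 lower genes 8 were also at least 2-fold lower there, against 26 genes (0.214%) of all. The extremes of the pair still differed at 6 h: H2-K1 had 560 RPKM in pretreated 6 h and 288 RPKM in naive 6 h, just under 2-fold, and Serpina3n had 1.16 RPKM in pretreated 6 h and 12.0 RPKM in naive 6 h.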

How the data were processed

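RNA from fibroblasts was sequenced on a HiSeq 2000, per the labels' protocols. The authors deposited tag counts per transcript and RPKM values for 10 libraries. Bowtie, TopHat and Cufflinks (version 1.2.1) and the build mm10 appear in the submitters' processing notes, without roles; no source used here names a counting tool or says whether strand was used. Between libraries, the ratio of deposited count to RPKM was the same for 7630 genes within 0.000196 on the log2 scale, so 1 factor per library scaled the values. For each of 23370 symbols 1 transcript stood in, that of the highest RPKM averaged over the libraries; 15 transcripts without a gene name were left out. Differences are log2(RPKM + 1), pretreated 1 h minus naive 2 h, a scale that understates changes of low genes. The members, gene lists and thresholds were chosen with earlier results of these data known. Counting intervals are exact 95% binomial intervals of the ratio of the 2 counts; they cover counting error only. The named genes are the 20 largest differences in each direction, the panel, the 4 most abundant members of each list, and list members beside their list; Rps28, Mt1, Pcolce2 and Peg10 were chosen after their values were seen. Promoters come from RefSeq (GRCm38.p6), matched by gene ID. Alternative scalings used edgeR 4.0.16 (TMM) and DESeq2 1.42.0 (size factors) on the deposited counts, with no test. The steps were tested on simulated data. 1 panel gene is not reported here by name.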

Additional observations from a re-analysis of the deposited data

Results flagged for a closer look

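Opposite changes over the arm's own 0 h library, each 2-fold or more, were seen in 8 genes between pretreated 1 h and naive 2 h; with 1 library each, the difference was not tested. Values are the log2 change in pretreated 1 h over pretreated 0 h minus that in naive 2 h over naive 0 h. The immediate early genes Nr4a1, Egr1 and Egr3 had differences of 3.26, 3.15 and 2.45. These genes were higher in pretreated 1 and 4 h than in pretreated 0, 2 and 6 h, as H19 was, and the part of that split was not tested. Egr1 had 106 RPKM in pretreated 1 h and 49.8 RPKM in pretreated 0 h, against 25.7 RPKM in naive 2 h and 111 RPKM in naive 0 h. Mir1249 and Nkd1 had differences of 2.40 and 2.16. The Mir1249 value rested on few reads, with 21 counts in pretreated 1 h, 2 in naive 2 h and 0 RPKM in pretreated 0 h. The small RNA entries Scarna9 and Snord14a had differences of -3.17 and -3.03, and Gfra1, a receptor for glial-derived factors, had a difference of -2.69.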

How the results depend on the processing

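No paired analysis was possible because each group held 1 library. The counts of 115 genes higher and 93 lower moved with the pseudocount, to 270 and 173 with 0.1 and to 56 and 25 with 5, and with the fold, to 546 and 541 at 1.5 and to 40 and 10 at 3. The share of higher genes among those apart was 55.3%, 60.9% with pseudocount 0.1, 69.1% with pseudocount 5 and 80.0% at a fold of 3. Other filters, TMM, DESeq2 size factors, totals without Rn45s and transcript sums gave 95 to 130 genes higher and 80 to 103 lower. They put the first-response median between -0.21 and -0.15, against -0.16, and pseudocount 5 put it at -0.10. With pretreated 2 h in place of 1 h, 189 genes were higher, and the medians of first-response and carried-over genes were 0.49 and 0.80. With pretreated 0 h, 221 were higher and 328 lower, with medians of -0.53 and 0.15. Against naive 1 h 188 were higher, with medians of 0.58 and 0.96. Against naive 4 h 28 were higher and 247 lower, with medians of -0.77 and -0.61. The sign of the first-response median thus turned with 1 library. Single genes were checked only for 55 that were apart, taken from the largest differences, the panel and the most abundant list members. Of these 55 genes, 11 fell under 2-fold, all with pseudocount 5, among them Mmp3, Clic5 and Chl1, and none changed direction. Other genes named in the text, such as Il15, Il33, Jak2 and H19, were not in that check. Il15 and Il33 lay at log2 differences of -1.003 and -1.005. Totals without Rn45s gave 86 lower genes against 93, so lower calls this close to 2-fold depend on the scaling. With 1 library a group, the spread between cultures is unknown.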
